A study of Mus musculus with 6 samples.

Results

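The heavy chain variable genes, named Ighv in the mouse, were taken from the deposited gene table as all entries of biotype IG_V_gene whose symbol starts with Ighv. There were 113 of them among 52636 listed genes. Their values came from 6 total RNA libraries of mouse optic nerve, made after removal of ribosomal RNA with a strand-keeping kit. The hND6 group held 3 libraries, labelled with the treatment "Mutant human ND6T14484C". ND6 is a mitochondrially encoded subunit of respiratory complex I, and the treatment text says that a lentivirus carried the mutant gene into the eye. The mCherry group held 3 libraries, labelled with the treatment "mCherry", the name of a red fluorescent protein, and carried the same text on the mutant gene, so the labels do not state what its mice received. Strain, age, time after injection and the promoter of the virus are not given in the sources used here, nor is whether each library came from its own animal. P-values therefore set group differences against the variation between libraries, and some of that variation may be technical.

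An antibody heavy chain is encoded by a V, a D and a J segment, joined by DNA recombination in a developing B lymphocyte, and by a constant gene that sets the antibody class. Each B cell clone thus uses mostly a single rearranged V gene, and plasma cells, the antibody-secreting descendants of B cells, fill much of their messenger RNA with that transcript. The mix of V genes in bulk tissue RNA is therefore a coarse record of the antibody-making cells in it. In bulk samples, fewer cells of a type and less RNA per cell cannot be told apart.

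All 113 genes lay on the minus strand of chromosome 12 (GRCm38, chr12:113578504-116000461), between Ighv5-2 at the end nearest the D segments and Ighv1-85 at the far end. Their symbols place them in 16 families, of which Ighv1 is the largest with 53 genes, followed by Ighv5 with 10 and by Ighv2 and Ighv8 with 9 each. Only 6 genes had at least 10 reads in every hND6 library, and their germline sequences are shown because most of the comparison turns on them. They are the closing stretches of the GENCODE transcripts on GRCm38, up to the end of the V segment. Capitals mark each base that differs from, or is missing in, the closest other Ighv transcript. They set the gene apart from that transcript only, and other Ighv genes may hold the same base. Bases that only the relative has are not marked but are counted below as differences.
Ighv1-42: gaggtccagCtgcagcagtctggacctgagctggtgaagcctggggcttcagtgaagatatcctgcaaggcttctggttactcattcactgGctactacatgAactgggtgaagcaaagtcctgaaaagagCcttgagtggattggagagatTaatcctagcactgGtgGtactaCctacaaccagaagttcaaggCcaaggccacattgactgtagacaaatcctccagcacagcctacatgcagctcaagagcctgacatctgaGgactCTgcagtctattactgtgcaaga
Ighv1-9: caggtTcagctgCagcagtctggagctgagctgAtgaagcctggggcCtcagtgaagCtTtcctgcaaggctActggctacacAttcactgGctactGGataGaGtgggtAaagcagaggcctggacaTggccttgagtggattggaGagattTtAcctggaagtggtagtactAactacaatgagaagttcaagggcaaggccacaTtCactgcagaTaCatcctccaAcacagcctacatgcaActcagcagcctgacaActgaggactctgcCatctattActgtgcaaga
Ighv1-52: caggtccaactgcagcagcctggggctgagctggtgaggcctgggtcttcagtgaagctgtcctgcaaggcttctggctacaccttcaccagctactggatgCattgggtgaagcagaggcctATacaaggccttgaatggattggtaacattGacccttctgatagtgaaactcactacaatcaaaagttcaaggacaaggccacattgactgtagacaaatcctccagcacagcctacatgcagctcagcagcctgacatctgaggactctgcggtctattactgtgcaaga
Ighv1-64: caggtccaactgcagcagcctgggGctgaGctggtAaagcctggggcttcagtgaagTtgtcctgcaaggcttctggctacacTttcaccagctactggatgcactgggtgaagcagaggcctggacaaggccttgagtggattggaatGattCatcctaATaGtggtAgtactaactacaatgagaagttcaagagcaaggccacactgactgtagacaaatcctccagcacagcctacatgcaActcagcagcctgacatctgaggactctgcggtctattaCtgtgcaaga
Ighv1-26: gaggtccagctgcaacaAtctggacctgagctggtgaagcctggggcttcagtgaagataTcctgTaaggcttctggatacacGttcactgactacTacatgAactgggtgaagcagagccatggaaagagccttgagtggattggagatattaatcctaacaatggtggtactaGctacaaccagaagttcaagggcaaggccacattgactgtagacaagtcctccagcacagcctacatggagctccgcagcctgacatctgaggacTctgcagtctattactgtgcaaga
Ighv3-6: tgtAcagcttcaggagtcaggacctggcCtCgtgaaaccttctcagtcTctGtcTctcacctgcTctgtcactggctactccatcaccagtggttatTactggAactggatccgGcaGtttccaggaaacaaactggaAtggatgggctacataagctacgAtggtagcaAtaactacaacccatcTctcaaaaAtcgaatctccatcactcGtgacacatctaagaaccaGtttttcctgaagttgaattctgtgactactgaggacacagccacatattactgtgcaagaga
Within the stretch shown, Ighv1-42 (chr12:114937113-114937544, minus strand) differed at 12 bases from the pseudogene Ighv1-30. Ighv1-9 (chr12:114583569-114584002) differed at 30 bases from Ighv1-77, and Ighv3-6 (chr12:114288152-114288582) at 20 bases from Ighv3-1. Ighv1-52 (chr12:115145487-115145919) was the least distinct of the 6, with 4 bases separating it from Ighv1-61, a gene without a read in any library. Ighv1-64 (chr12:115507545-115508031) differed at 14 bases from Ighv1-53, and Ighv1-26 (chr12:114788372-114788805) at 8 bases from Ighv1-18. The 5 Ighv1 sequences were 83.3% to 92.9% identical to each other and 57.8% to 61.2% identical to Ighv3-6. All 6 hold the run TGTGCAAGA at or near their end, which starts with the codon of the conserved cysteine before the V-D-J junction. Searched on the coding strand, that run stood in the last 15 bases of 33 of the 51 Ighv genes with a read (64.7%), 28 of the 62 without a read (45.2%) and 21 of the 70 Ighv pseudogenes (30%).

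The deposited values are FPKM, fragments scaled by exon length and library size. Since they fall on whole multiples of one step per library, they were turned back into reads. The gene totals were 34057682, 20253637 and 22045296 reads in hND6 libraries 1 to 3 and 30500490, 34758873 and 25718356 in mCherry libraries 1 to 3. Library mCherry 3 stood apart on the first principal component of all tested genes (46.9% of the variance), at -65.0 against values from -23.3 to 34.4 in the other 5 libraries. The delivered human gene was not analysed here. As a check for glial transcripts, which alone cannot tell optic nerve from other nervous tissue, reads of Mbp and Gfap were taken. The myelin gene Mbp had 434062, 283532 and 308386 reads in hND6 libraries 1 to 3 and 405155, 430398 and 224312 in mCherry libraries 1 to 3. The astrocyte gene Gfap had 115723, 79921 and 91557 reads in hND6 and 99412, 109289 and 61773 in mCherry. In FPKM both were lowest in mCherry 3, Mbp at 1818 against 2643 to 3009 and Gfap at 907 against 1237 to 1619 in the other 5 libraries.

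Heavy chain variable transcripts were plentiful in every hND6 library and scarce in every mCherry library. Ighv genes together had 1750, 854 and 2311 reads in hND6 libraries 1 to 3, against 67, 2 and 15 reads in mCherry libraries 1 to 3. In RPM, reads scaled to the total of gene reads in the library, these were 51.4, 42.2 and 104.8 in hND6 and 2.20, 0.0575 and 0.583 in mCherry. The groups did not overlap, and the lowest hND6 library lay well above the highest mCherry library. The mean was 66.1 ± 33.8 RPM in hND6 and 0.946 ± 1.11 in mCherry (SD, n = 3 each), a ratio of 69.9 (two-sided exact permutation test, p = 0.1, the smallest that 3 against 3 libraries allow; 0.133 adjusted over 4 such tests). The mCherry mean rested mostly on library 1, and without it the ratio was 206. Without mCherry 3, the library that stood apart, the ratio was 58.7. The 70 Ighv pseudogenes had 2 reads in hND6 and 0 in mCherry.

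Of the 113 genes 51 had a read in some library and 62 had none. In the hND6 libraries 47 genes had a read, against 17 genes in the mCherry libraries, and 13 were common to both, which is 27.7% of the hND6 list and 76.5% of the mCherry list. The 4 genes with reads in mCherry alone were Ighv14-4 with 7 reads, Ighv1-36 with 5, Ighv5-4 with 1 and Ighv7-1 with 1, each from a single library. Ighv5-4 falls outside the rule for named genes and was chosen after its value was seen. No gene had a read in all 3 mCherry libraries, and 2 had one in 2 of them, Ighv3-6 and Ighv1-52. The median share of 50-base stretches found in no other Ighv gene was 79.1% for genes with a read and 76.6% for genes without, with ranges of 7.49% to 100% and 2.58% to 100%.

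**Figure D1:**
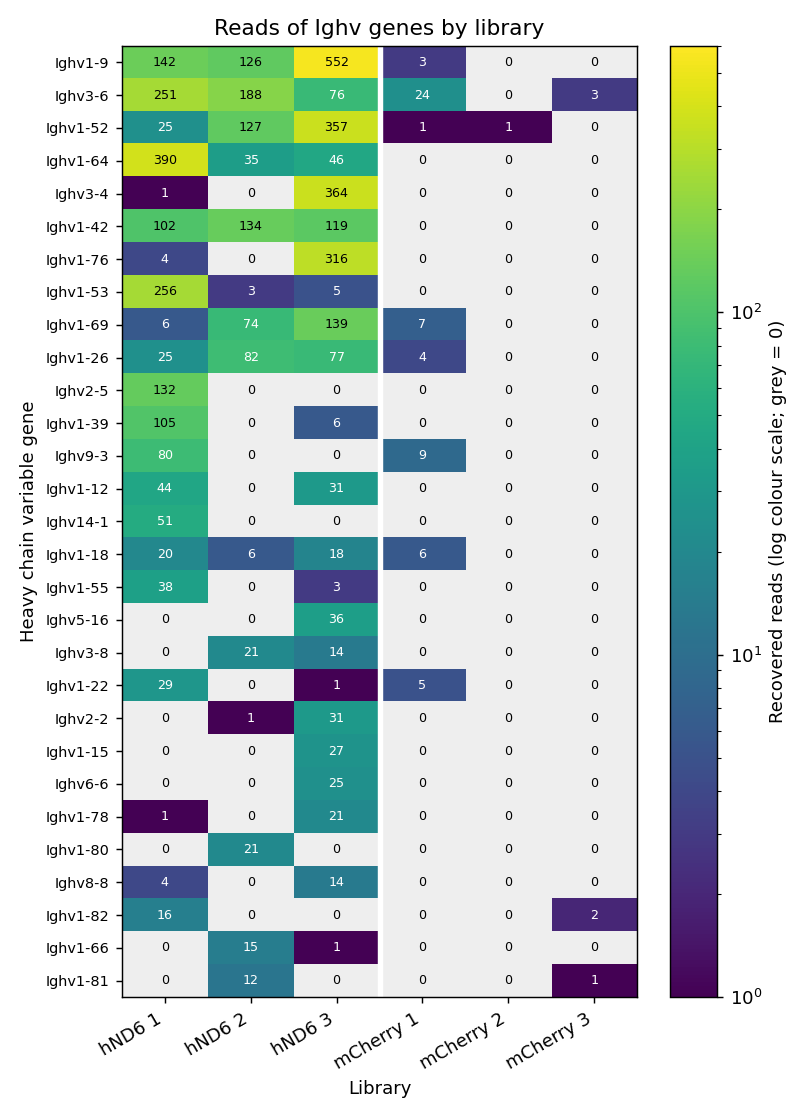
Recovered reads of the 29 Ighv genes with at least 10 reads in some library (rows, ordered by total) in the 6 libraries (columns, hND6 left of mCherry), on a log colour scale with 0 in grey. Ighv1-42 has 102, 134 and 119 reads in the hND6 libraries and 0 in each mCherry library, while genes such as Ighv3-4 and Ighv2-5 are high in a single hND6 library.

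The number of Ighv genes with a read was 30, 17 and 30 in hND6 libraries 1 to 3 and 10, 2 and 7 in mCherry libraries 1 to 3. The mean was 25.7 ± 7.51 genes in hND6 and 6.33 ± 4.04 in mCherry (SD, n = 3 each; two-sided exact permutation test, p = 0.1, 0.133 adjusted over 4 tests). The count of genes depends on the number of reads behind it. With each library thinned by calculation to the 67 Ighv reads of mCherry 1, a setting chosen after the data were seen, the expected number was 14.9, 11.2 and 14.3 genes in hND6 libraries 1 to 3 against 10 in mCherry 1. The other 2 mCherry libraries were too shallow for this. Thinned to the 854 reads of hND6 2, hND6 libraries 1 and 3 were expected to show 26.9 and 27.2 genes, against the 17 genes of hND6 2 itself. At an equal number of Ighv reads, hND6 2 thus showed fewer genes than the other hND6 libraries.

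The families Ighv1 and Ighv3 supplied most heavy chain variable reads of the hND6 libraries. Ighv1, known as the J558 family, made up 69.4% (exact Clopper-Pearson 95% interval 67.2% to 71.6%), 74.6% (71.5% to 77.5%) and 75.0% (73.2% to 76.7%) of the Ighv reads in hND6 libraries 1 to 3. In mCherry libraries 1 to 3 it made up 38.8% (27.1% to 51.5%), 50% (1.26% to 98.7%) and 73.3% (44.9% to 92.2%). These intervals cover counting error only, and reads without molecular identifiers are not independent molecules. The mean share was 73.0% ± 3.10 in hND6 and 54.0% ± 17.6 in mCherry (SD, n = 3 each; two-sided exact permutation test, p = 0.2, 0.2 adjusted over 4 tests), a difference that did not pass. With the leading gene of each library left out, the Ighv1 share was 60.7%, 95.6% and 67.1% in hND6 libraries 1 to 3 and 60.5%, 100% and 60% in mCherry libraries 1 to 3, a difference of 0.99 percentage points in place of 19.0. Without mCherry 3 the difference over all reads was 28.6 points. Ighv1 holds 46.9% of the 113 genes and gave 72.9% of the pooled hND6 reads.

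Ighv3, a family of 6 genes or 5.31% of the list, gave 14.5%, 24.5% and 19.6% of the Ighv reads in hND6 libraries 1 to 3, against 35.8%, 0% and 20% in mCherry libraries 1 to 3. Its reads came mainly from a single gene in hND6 1 and 2, Ighv3-6, and mainly from Ighv3-4 in hND6 3. The other families were uneven between hND6 libraries. Ighv2 gave 7.89% of the reads in hND6 1, nearly all from Ighv2-5, 0.117% in hND6 2 and 1.34% in hND6 3. Ighv9 and Ighv14 had reads in hND6 1 but none in hND6 2 and 3, and Ighv6, Ighv4, Ighv10 and Ighv11 had reads in hND6 3 but none in hND6 1 and 2. Ighv5, with 10 genes, gave 0%, 0.117% and 1.73% of reads in hND6 libraries 1 to 3, led by Ighv5-16 with 36 reads in hND6 3. Ighv8, with 9 genes, gave 0.229%, 0.703% and 0.779%. Over the libraries it was led by Ighv8-8, which had 4, 0 and 14 reads in hND6 libraries 1 to 3. Ighv7 had 7 reads in hND6 1, all from Ighv7-3, and 1 read in each of mCherry 1 and mCherry 2. The 4 families Ighv12, Ighv13, Ighv15 and Ighv16, with 1 gene each, had no read in any library.

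**Figure D2:**
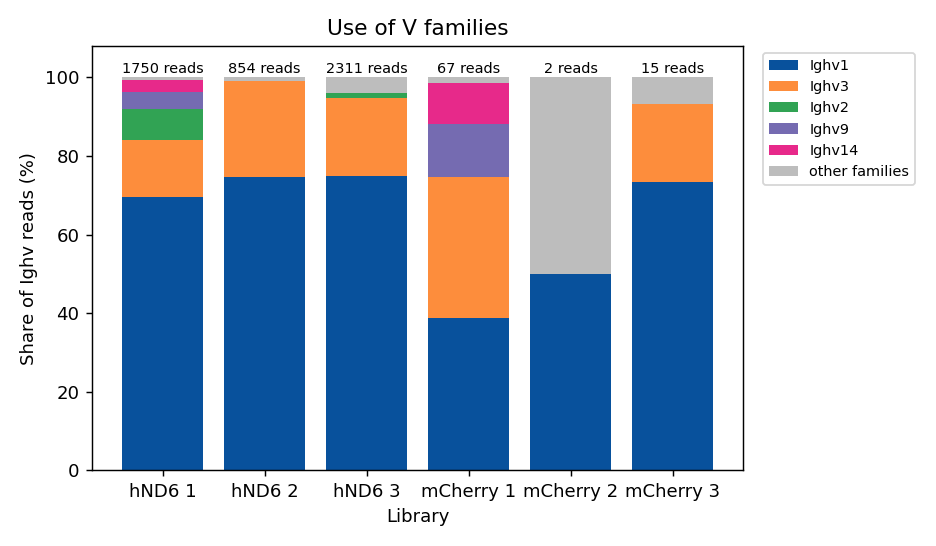
Share of Ighv reads (%, vertical axis) taken by the 5 families with most reads and by all other families together, in each library, with the number of Ighv reads above the bar. Ighv1 takes 69.4% to 75.0% in the hND6 libraries, while the bars of mCherry 2 and mCherry 3 rest on 2 and 15 reads.

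The leading gene took a similar share in each hND6 library but was a different gene each time. It was Ighv1-64 in hND6 1 with 390 reads, Ighv3-6 in hND6 2 with 188 reads and Ighv1-9 in hND6 3 with 552 reads. These made up 22.3% (exact Clopper-Pearson 95% interval 20.4% to 24.3%), 22.0% (19.3% to 24.9%) and 23.9% (22.2% to 25.7%) of the Ighv reads. In mCherry 1 the leading gene was Ighv3-6, with 24 of 67 reads or 35.8% (24.5% to 48.5%), and in mCherry 3 it was Ighv1-36, with 5 of 15 reads. The 2 reads of mCherry 2 fell on Ighv7-1 and Ighv1-52. The mean leading share was 22.7% ± 1.01 in hND6 and 39.7% ± 8.99 in mCherry (SD, n = 3 each; two-sided exact permutation test, p = 0.1, 0.133 adjusted over 4 tests). With 2 reads, as in mCherry 2, the leading share cannot be under 50%. That floor does not set the 35.8% of mCherry 1 or the 33.3% of mCherry 3. Thinned by calculation to 2 reads, a setting added after the data were seen, the expected share was 55.8%, 56.8% and 56.7% in hND6 libraries 1 to 3 and 58.8%, 50% and 57.1% in mCherry libraries 1 to 3, and the groups overlapped. At 2 reads the share of mCherry 2 is fixed at 50%, the lowest possible, so the mCherry group could not lie wholly above hND6. The overlap therefore cannot show what part depth plays. No difference in dominance between the groups can be read at these depths.

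The 3 leading genes together made up 51.3%, 52.6% and 55.1% of the Ighv reads in hND6 libraries 1 to 3, and 7 different genes filled these 9 places. The second gene was Ighv1-53 in hND6 1 (256 reads), Ighv1-42 in hND6 2 (134 reads) and Ighv3-4 in hND6 3 (364 reads). The third was Ighv3-6 in hND6 1 (251 reads) and Ighv1-52 in both hND6 2 (127 reads) and hND6 3 (357 reads). It took 11, 8 and 10 genes to reach 90% of the Ighv reads in hND6 libraries 1 to 3, and 15 genes over the 3 libraries pooled. The effective number of genes, the inverse of the summed squared shares, was 8.63, 7.29 and 7.44.

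**Figure D3:**
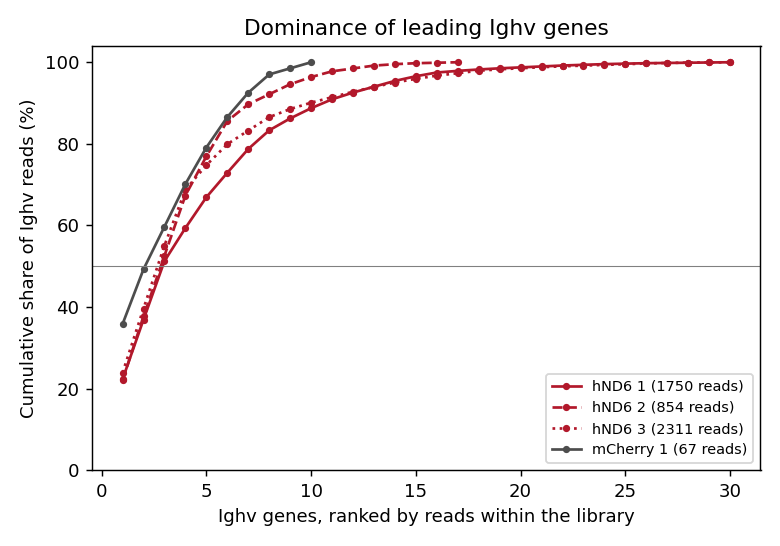
Cumulative share of Ighv reads (%, vertical axis) against the rank of the gene within its library, for the 3 hND6 libraries and mCherry 1; the grey line marks 50%. Each hND6 curve passes 50% with 3 genes and starts between 22.0% and 23.9%, while mCherry 1 starts at 35.8% on 67 reads.

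Shared and library-private genes were counted among the hND6 libraries at a minimum of 10 reads. Of the 29 genes that reached it in some hND6 library, 6 reached it in all 3, 4 in 2 and 19 in a single library. The 6 shared genes, Ighv1-9, Ighv3-6, Ighv1-52, Ighv1-64, Ighv1-42 and Ighv1-26, carried 53.4%, 81.0% and 53.1% of the Ighv reads in hND6 libraries 1 to 3. The genes private to a library numbered 8, 3 and 8 and carried 40.4%, 5.62% and 36.1% of the reads. Private here means under 10 reads elsewhere, not absence. With the stricter demand of no read in the other 2 hND6 libraries, the private genes numbered 4, 2 and 3 and carried 15.9%, 3.86% and 3.81% of the reads. At a minimum of 1 read, 9 genes were seen in all 3 hND6 libraries, 12 in 2 and 26 in one.

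The largest private signals were in hND6 1 and hND6 3. Ighv1-53 had 256 reads in hND6 1, against 3 in hND6 2 and 5 in hND6 3. Ighv2-5 had 132 reads in hND6 1 and none in the other hND6 libraries, and Ighv14-1 had 51 reads there and none elsewhere. Ighv1-39, also chosen after its values were seen, had 105 reads in hND6 1, 0 in hND6 2 and 6 in hND6 3. Ighv3-4 had 364 reads in hND6 3, 1 in hND6 1 and 0 in hND6 2. Ighv1-76, chosen after its values were seen, had 316 reads in hND6 3, 4 in hND6 1 and 0 in hND6 2. Ighv9-3 had 80 reads in hND6 1 and 9 in mCherry 1 and none in the other 4 libraries, so it was private among the hND6 libraries but not among all 6. Of the 19 private genes 11 belonged to Ighv1, against 19 of the 29 genes that reached 10 reads.

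Use overlapped unevenly between the hND6 libraries. At 10 reads hND6 2 and hND6 3 shared 8 genes, 72.7% of the hND6 2 list and 44.4% of the hND6 3 list. The libraries hND6 1 and hND6 3 also shared 8 genes, 50% and 44.4% of their lists, and hND6 1 and hND6 2 shared 6, 37.5% and 54.5%. Summing the smaller of the 2 shares over all genes, the common use was 51.3% between hND6 2 and 3, 36.6% between hND6 1 and 2 and 25.1% between hND6 1 and 3. Of the 10 genes with a read in mCherry 1, 9 had a read in hND6 1, 6 in hND6 2 and 7 in hND6 3, which is 30%, 35.3% and 23.3% of those lists.

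The genes were then tested singly, hND6 against mCherry, among all genes that averaged 0.5 FPKM or more over the 6 libraries. The test was limma on log2(FPKM + 0.5) with Benjamini-Hochberg adjustment over 16157 genes. Of the 113 Ighv genes 24 passed the filter, and 23 of these averaged under 0.5 FPKM in mCherry, so these 23 passed only through their hND6 values and had to lie higher, and their direction is no finding. Just inside the filter lay Ighv1-55 at a mean of 0.502 FPKM, and just outside it Ighv1-78 at 0.449 FPKM. Of the other 89 genes, 27 had some reads and 62 had none. Ighv1-42 was the only Ighv gene past the adjusted p threshold of 0.05, beside 0.0433% of all tested genes called higher in hND6. The groups did not overlap for 8 of the 113 genes, all higher in hND6 and all among the tested 24, beside 12.6% of all tested genes and 8.71% of all genes with a read.

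Of the 6 shared genes Ighv1-42 had the smallest spread relative to its mean, at 14.6 ± 5.53 FPKM in hND6 (SD, n = 3) and 0 in mCherry. It stood at 8.49, 19.3 and 15.9 FPKM in hND6 libraries 1 to 3, from 102, 134 and 119 reads, and had no read in the mCherry libraries. All 3 hND6 values thus lay above all mCherry values, which the choice of genes with reads in every hND6 library largely set in advance. Over the groups, 355 reads stood against 0, a level at least 141-fold higher, with 3 reads over the mCherry group taken as the floor. Its fitted log2 fold change, which understates low values, was 4.84 ± 0.30 (SE, limma adjusted p = 0.0166). The mCherry values, all 0, had no spread to enter that SE. Ighv1-42 was also among the 23 genes that passed the filter only through hND6, so the direction is no finding. With no filter on low values its limma adjusted p was 0.0573. The adjusted p was above 0.05 without hND6 2, hND6 3, mCherry 1 or mCherry 2 (0.0546 to 0.118), and over all 18 alternatives ran from 0.00618 to 0.199, its highest value with voom on recovered reads.

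Ighv1-9 had the most reads of all Ighv genes. It stood at 11.8, 18.2 and 73.6 FPKM in hND6 libraries 1 to 3 and at 0.282, 0 and 0 FPKM in mCherry libraries 1 to 3. The groups did not overlap, which the choice of the shared genes largely set in advance, and hND6 3 lay far above the other hND6 libraries. The 820 reads in hND6 and 3 in mCherry gave a ratio of 326 per library size (exact 95% counting interval 111 to 1582), and its limma adjusted p was 0.14. Among the alternatives it passed without hND6 3 alone (adjusted p = 0.0461). Ighv3-6 stood at 20.9, 27.2 and 10.2 FPKM in hND6 and at 2.26, 0 and 0.333 FPKM in mCherry. It had the most mCherry reads of the 113 genes, and its 515 reads in hND6 and 27 in mCherry gave a ratio of 22.7 (15.4 to 34.8), with a limma adjusted p of 0.143.

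Ighv1-52 stood at 2.08, 18.3 and 47.6 FPKM in hND6 libraries 1 to 3, and at 0.0939, 0.0859 and 0 FPKM in mCherry libraries 1 to 3. The hND6 1 value lay far below the other 2 hND6 values, and its 509 reads against 2 gave a limma adjusted p of 0.177. Of its 50-base stretches 32.8% occurred in no other Ighv gene, against 99.3% for Ighv1-9 and 96.7% for Ighv3-6. The share was 42.4% for Ighv1-53, 51.0% for Ighv1-26, 66.6% for Ighv1-64 and 67.2% for Ighv1-42. The counts of Ighv1-52 and of these genes are uncertain where reads could not be assigned. Ighv1-64 stood at 28.1, 4.37 and 5.32 FPKM in hND6 and at 0 in each mCherry library, with 471 reads against 0, at least 187-fold higher (limma adjusted p = 0.143). Ighv1-26 stood at 2.08, 11.8 and 10.3 FPKM in hND6 and at 0.375, 0 and 0 FPKM in mCherry. Its lowest hND6 value came from hND6 1, and its limma adjusted p was 0.152.

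**Figure D4:**
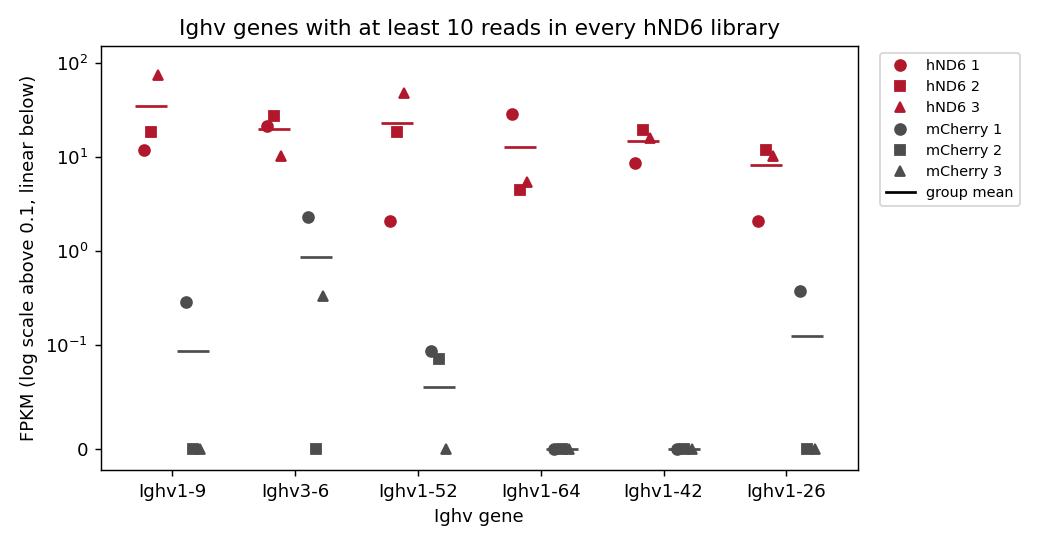
FPKM (vertical axis, log scale above 0.1 and linear below) of the 6 Ighv genes with at least 10 reads in every hND6 library, with 1 point per library and a bar at the group mean (n = 3 each). All hND6 points lie above all mCherry points of the same gene. The choice of genes by their hND6 reads largely set this in advance, as the mCherry libraries hold 67, 2 and 15 Ighv reads in all. On the log scale the hND6 points spread most for Ighv1-52, from 2.08 to 47.6 FPKM.

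Reads came from most of the length of the locus, with a weak contribution of the D-proximal genes in hND6 2. The 113 genes were cut by order along the chromosome into a D-proximal group of 38, a middle group of 37 and a D-distal group of 38, in which 18, 15 and 18 genes had a read in some library. The D-proximal genes gave 16.0%, 0.234% and 19.2% of Ighv reads in hND6 libraries 1 to 3. The middle genes gave 41.1%, 65.9% and 41.0%, and the D-distal genes 42.9%, 33.8% and 39.8%. In mCherry 1, 25.4% of the 67 reads were D-proximal, 62.7% middle and 11.9% D-distal. In hND6 2 the D-proximal group had 2 reads, from 2 genes. Position and family go together here, since no Ighv1 gene lies in the D-proximal group, while 23 lie in the middle and 30 in the D-distal group.

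**Figure D5:**
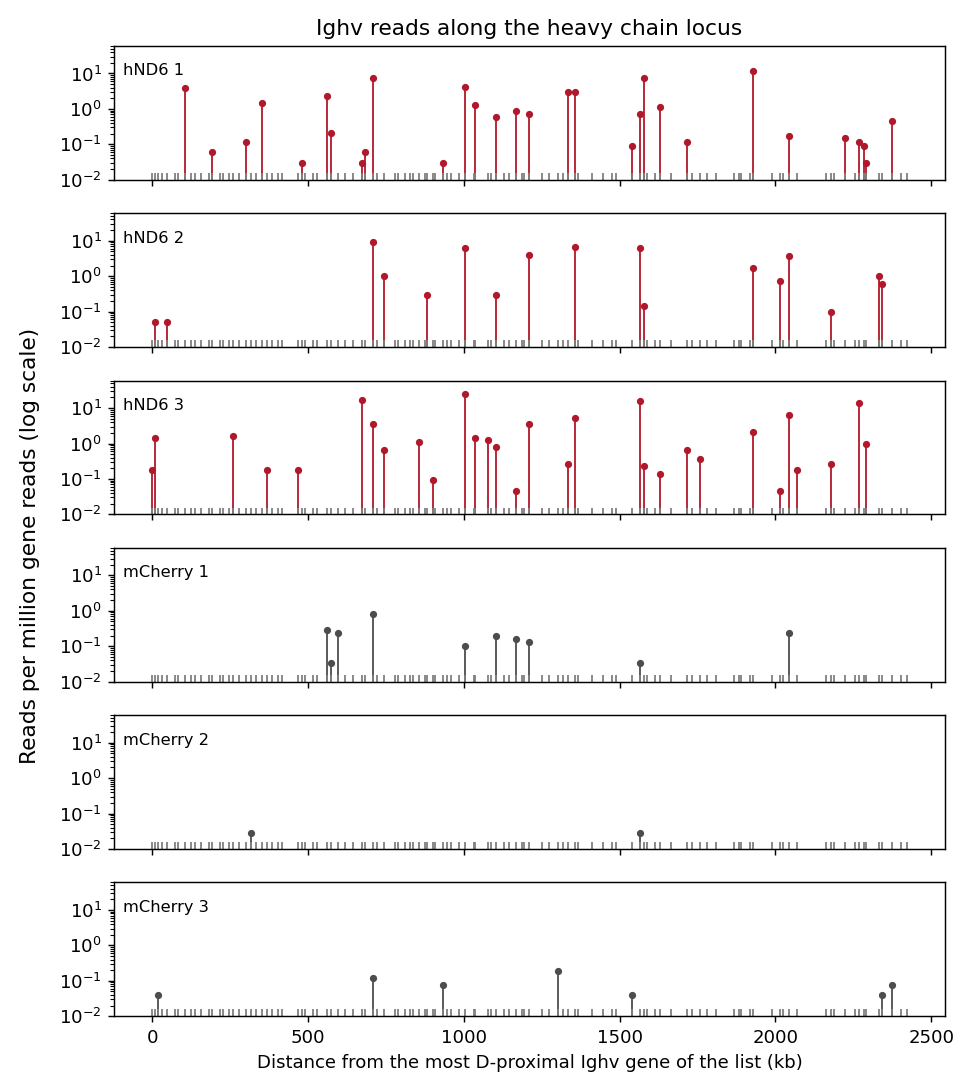
RPM (vertical axis, log scale) of each Ighv gene with a read, against its distance in kb from the most D-proximal gene of the list, in 1 panel per library; grey ticks mark all 113 genes. The hND6 panels show tall points along the locus, except for the D-proximal part in hND6 2, where 2 genes have 1 read each.

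The ratio of variable to heavy constant reads was nearly the same in the 3 hND6 libraries. All 8 constant genes together had 7990, 4126 and 10546 reads in hND6 libraries 1 to 3 and 812, 399 and 288 in mCherry libraries 1 to 3. Per 100 constant reads there were 21.9, 20.7 and 21.9 Ighv reads in hND6, against 8.25, 0.501 and 5.21 in mCherry (two-sided exact permutation test, p = 0.1). Most mCherry constant reads were those of Ighm, the IgM constant gene, with 733, 359 and 241 reads. Without Ighm and Ighd, 5822, 3272 and 7024 constant reads were left in hND6 libraries 1 to 3, but only 65, 14 and 22 in mCherry libraries 1 to 3. On these the values were 30.1, 26.1 and 32.9 in hND6 and 103, 14.3 and 68.2 in mCherry (two-sided exact permutation test, p = 0.4). The direction of the difference thus turned with that choice, which was made after the data were seen. Ighv reads were not split by constant gene, so any joined to Ighm or Ighd stayed in the count. The ratio over all 8 constant genes was not planned either. Of the 5 constant genes tested with limma 3 passed, all higher: Igha, Ighg2b and Ighg2c, beside 0.0433% of all tested genes called higher. These calls ended with the replicate number as a block, with voom on recovered reads and without mCherry 2, where 0 genes were called in all. Only 1 gene was called in all with no filter on low values, and likewise without mCherry 1. Without hND6 1 it was 2 genes, among them Ighv1-42. Most of the 3 calls thus ended in each of these settings too. The Ighj segments, to which V genes are joined, had 44, 19 and 21 reads in hND6 and 3, 27 and 9 in mCherry, and thus did not follow the Ighv reads in mCherry 2.

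Other genes of the antibody-making lineage were counted on lists chosen for this work. Of 12 plasma cell genes 10 were tested, and Jchain, which joins secreted IgA and IgM, was the only one past the threshold, as higher. This is 1 of 10, beside 0.0433% of all tested genes called higher. The median log2 fold change of the list was 0.44, against -0.01 over all tested genes. The Jchain call ended with the replicate number as a block, with voom on recovered reads and without mCherry 2. The few genes called in all under the other settings named for the constant genes limit it as well. The list summed to 85.8, 83.6 and 121.9 FPKM in hND6 libraries 1 to 3 and to 59.3, 53.4 and 56.2 FPKM in mCherry libraries 1 to 3. Txndc5 and Xbp1 gave most of each sum, with 24.7 and 31.3 FPKM in hND6 1 and 20.8 and 29.7 FPKM in mCherry 1. Of the 10 tested, 9 lay higher in hND6, and Slamf7 lay lower. Slamf7 and Prdm1 were highest in mCherry 1, at 2.54 and 0.979 FPKM. Mzb1 in mCherry 1, at 1.06 FPKM, lay above hND6 1 and hND6 2. These plasma cell genes were picked after their values were seen. Of 12 B cell genes 3 were tested and none passed (0 of 3, median 0.16), beside the same 0.0433% of all tested genes. The B cell list summed to 4.54, 4.16 and 4.12 FPKM in hND6 libraries 1 to 3 and to 4.15, 1.95 and 2.71 FPKM in mCherry libraries 1 to 3, so that hND6 3 lay below mCherry 1. Cd79a and Cd79b, the signalling chains of the B cell receptor, did not overlap between the groups. The same held, with hND6 higher, for 12.6% of all tested genes and 8.71% of all genes with a read. Cd79a lay below the filter and was not tested. Cd79a stood at 0.661, 0.798 and 0.739 FPKM in hND6 and at 0.226, 0.104 and 0.374 FPKM in mCherry. Cd79b stood at 0.796, 0.530 and 1.01 FPKM in hND6 and at 0.506, 0.105 and 0.217 FPKM in mCherry. Ms4a1, the B cell surface protein CD20, overlapped, with 20, 5 and 3 reads in hND6 and 1, 3 and 4 in mCherry, and Cr2 and Cxcr5 were highest in mCherry 3. These B cell genes were chosen from the list after their values were seen. Of the 7 genes of V(D)J recombination and precursor B cells none passed the filter. Rag1, whose product cuts the segments, and Vpreb2 were at 0 in all 6 libraries, and Rag2 had 6 reads in hND6 3 and 3 in mCherry 1. Of the genes tested for the germinal centre reaction, in which B cells mutate and switch their antibody genes, Bcl6, S1pr2 and Ung did not pass.

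Transcripts of red blood cells were also more abundant in every hND6 library than in any mCherry library, without passing the test gene by gene. The 8 erythroid genes, led by the globins, summed to 1390, 2624 and 1816 FPKM in hND6 libraries 1 to 3 and to 489, 192 and 413 FPKM in mCherry libraries 1 to 3, and no member was at 0 throughout. Of the 7 tested, 6 lay higher and none passed (median log2 fold change 2.45). The T cell list, at 4.10, 5.39 and 5.37 FPKM in hND6 and 6.87, 2.25 and 3.94 FPKM in mCherry, overlapped between the groups, and none of its 6 tested genes passed. Library hND6 2 was lowest in Ighv level and highest in erythroid transcripts among the hND6 libraries. The part of blood or of any cell type in the Ighv result was not tested.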

How the data were processed

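The authors deposited FPKM per gene for each library, per the labels, with a table of gene positions, biotypes and exon lengths. Single-library tables equalled the combined one. The tools listed in the submitters' processing notes are STAR, HTSeq, Trim Galore and CASAVA 1.4, with the builds GRCm38 and mm10. The sources used here do not give how reads of similar genes were counted. Reads spanning a V-D-J junction or carrying mutations must still align to a germline V gene to be counted, which was not tested.

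Multiplied by exon length, at least 99.99% of values above 0 fell within 0.1 read of a whole number of steps, which gave the recovered reads. Genes were tested with limma 3.58.1 in R 4.3.3 (moderated test with trend), checked on simulated data. Library totals used exact permutation tests (scipy 1.17.1), and thinning was calculated. Sequences were compared with edlib 1.3.9.post1. Only 1 Ighv gene (Ighv1-5) overlapped another listed gene on its strand. Samples were grouped by title. The members, lists and tests were chosen with earlier results of these data known. Named genes were Ighv genes past the threshold, the 3 leading genes of each library, those with 10 reads in all hND6 libraries, and the leading gene of each family. Planned promoter motifs were not analysed here. Shared replicate numbers were treated as unpaired. Some genes of the marker lists are not reported here.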

Additional observations from a re-analysis of the deposited data

How the results depend on the processing

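Of the 4 library-level results, the summed reads and the Ighv1 share kept their direction under every alternative tried. Thinned to the 2 Ighv reads of the shallowest library, the difference in the number of genes was -0.0224 and that in the leading share 1.12 percentage points, both of opposite sign to the values over all reads. At that depth mCherry 2 is fixed at 2 genes and a leading share of 50%, so these signs cannot show what part depth plays. Without single libraries, the ratio of summed Ighv reads ran from 47.6 to 206, the difference in genes from 17.2 to 23.7, that in the leading share from -20.2 to -11.8 percentage points, and that in the Ighv1 share from 11.3 to 28.6 points. The number of Ighv reads per 100 heavy constant reads, hND6 minus mCherry, was 16.9, and -32.2 without Ighm and Ighd. The second value rests on 65, 14 and 22 constant reads in mCherry libraries 1 to 3.

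The single Ighv gene called and the 7 genes called in all did not hold throughout. Calls fell to 0 Ighv genes and 1 gene in all with no filter on low values. They fell to 0 and 0 both with voom on recovered reads and with the replicate number as a block. At an unadjusted p under 0.05 stood 6 Ighv genes and 2462 genes in all with voom, and 9 and 1789 with the block. The main test held 24 Ighv genes among 16157 genes. With 23 of those 24 under 0.5 FPKM on average in mCherry, high hND6 levels were a condition of being tested. Small unadjusted p-values among these 23 are therefore no finding. Without single libraries the counts of calls ran from 0 to 1 Ighv genes and from 0 to 131 genes, with 131 called without mCherry 3. No Ighv gene was called without hND6 2, mCherry 1 or mCherry 2, and without hND6 3 the one called was Ighv1-9. Same-numbered libraries had correlations of -0.42, 0.36 and -0.20 between their deviations from the group means. Of the hND6 libraries, hND6 2 correlated best with its own number, while hND6 1 and hND6 3 did not. Deviations from a mean of 3 libraries depend on each other, so these values cannot settle whether same-numbered libraries belong together. The count of shared genes, 6 at 10 reads, was 9 at 1 and at 3 reads, 4 at 30 reads and 6 to 8 without 1 hND6 library. The cause of these changes was not tested. Depth limits the mCherry shares, which rest on 67, 2 and 15 reads.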
